A study of Mus musculus with 8 samples.

Results

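The JAK, STAT and SOCS genes described here are the 10 rows Jak1, Jak2, Jak3, Stat3, Stat4, Stat5a, Stat5b, Socs1, Socs3 and Cish of a table of 49492 mouse genes. They were chosen by gene name, with earlier results of these data known, and all 10 were found and passed the filter on low counts. RNA was measured in 8 libraries described as CD8+ T cells isolated with CD8a beads, on day 14, from subcutaneous tumours of B16, a mouse melanoma line, in mice described as female. The 4 control libraries came from PLPP1fl/fl mice, which carry loxP-flanked alleles of the phospholipid phosphatase gene Plpp1, and the 4 knockout libraries from Lckcre-PLPP1fl/fl mice, which carry the same alleles with a Cre recombinase driven by the T-lineage Lck promoter. No source used here gives the age of the mice, the floxed exon or whether each library came from its own animal. The p-values therefore reflect only how much these libraries vary, and part of that may be technical variation.

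Many cytokine receptors of T cells have no enzyme of their own and rely on Janus kinases (JAKs) bound to their tails. A bound cytokine brings the kinases together, they phosphorylate the receptor, and STAT proteins dock there, are phosphorylated in turn, pair up and enter the nucleus as transcription factors. Among the genes they switch on are the SOCS genes and Cish, whose proteins bind receptors or kinases and shut the signal down, so that their RNA is often read as a trace of recent cytokine signalling. In CD8+ T cells the interleukin-2 family acts mainly through JAK1, JAK3 and STAT5, interleukin-12 through JAK2, TYK2 and STAT4, and interleukins 6, 10 and 21 mainly through STAT3.

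Some properties of the whole data set touch every value below. Total counts ran from 49856353 to 61999941 in the control and from 44118131 to 57716522 in the knockout libraries. Plpp1 itself averaged 0.892 ± 0.18 CPM (counts scaled to library size, SD, n = 4) in controls and 0.498 ± 0.14 CPM in knockouts, a called fall of 0.84 on the log2 scale (SE 0.26, edgeR quasi-likelihood, adjusted p = 0.0064) with overlapping ranges. The 4 knockout libraries held 75.9 to 83 CPM of the Y-linked gene Ddx3y, against at most 0.116 CPM in a control, and Xist averaged 51.1 ± 4.4 CPM in knockouts against 747 ± 27 CPM in controls (SD, n = 4). Genotype and sex-chromosome expression therefore cannot be told apart in any comparison here. In all, 11542 of 17940 tested genes, or 64.3%, differed between the genotypes (edgeR quasi-likelihood, threshold of 0.05 on p adjusted by Benjamini-Hochberg over these genes, termed called below), with 32.8% called higher and 31.6% called lower in knockouts. In 58.3% of tested genes the libraries of one genotype lay wholly above those of the other.

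Markers of the labelled cell type were abundant, and most were themselves lower in knockouts. All 10 markers of CD8+ T cells were detected, with a summed level of 3761 to 3853 CPM in controls and 2800 to 2935 CPM in knockouts. Of these, 9 were called lower and 1, Cd2, was called higher. Cd2 averaged 316 ± 3.3 CPM in controls and 408 ± 18 in knockouts (SD, n = 4). The largest part of the summed level was Ptprc, at 1666 ± 56 CPM in controls and 1196 ± 41 in knockouts (SD, n = 4). Ptprc also stands in the list of other regulators below. Cd8a averaged 331 ± 5.4 CPM in controls and 240 ± 7.8 in knockouts (SD, n = 4), and Cd4 stood at 2.32 ± 0.16 and 1.52 ± 0.096 CPM. Summed levels of 4 markers of CD4+ T cells were 36.1 to 38.3 CPM in controls and 31.9 to 35.5 in knockouts, mostly Zbtb7b and Foxp3. Macrophage markers, all 12 with at least 1 count somewhere, summed to 7.06 to 7.64 CPM and 6.04 to 7.1 CPM, and neutrophil markers to at most 1.04 CPM, with S100a8 and Elane at 0 throughout. The 8 natural killer markers summed to 42.7 to 48.1 CPM in controls and 58.6 to 64.9 in knockouts, most of it Eomes and Cd160, which CD8+ T cells also express. These 2 moved in opposite directions. Eomes went from 24.4 ± 2.0 up to 43.45 ± 2.4 CPM and Cd160 from 17.5 ± 0.48 down to 11.9 ± 0.70 CPM (SD, n = 4). In some other lists 1 gene held most of the sum. B cell markers went from 188 to 202 CPM down to 89.6 to 98.9 through Ighm, stromal markers from 104 to 115 down to 28.3 to 33.4 through Pecam1, and melanoma markers from 19.6 to 21.5 down to 6.26 to 7.71 through Pmel, with Mlana, Tyr and Tyrp1 at 0. Dendritic markers went from 30.7 to 37 up to 252 to 273 CPM through Batf3, with Cd209a at 0, and erythroid markers, 4 of 5 tested called higher, from 5.68 to 6.42 up to 11.2 to 13 CPM. The part of such cells in the results below was not tested, and in bulk RNA fewer cells of a type and less RNA per cell cannot be told apart.

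Of the 10 JAK, STAT and SOCS genes, 4 rose and 5 fell in the knockout libraries and 1, Stat5b, was not called. That is 90% called, beside 64.3% of all tested genes. The libraries of the 2 genotypes did not overlap in 9 of the 10, beside 58.3% of all tested genes. The changes did not run one way: all 3 kinase genes fell, the STAT genes split, and among the SOCS genes Cish rose far more than Socs1 while Socs3 fell. The median log2 fold change was -0.17, against -0.012 for all tested genes, and the values ran from -0.71 for Jak2 to 1.71 for Cish. Each member had at least 514 counts in every library.

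**Figure D1:**
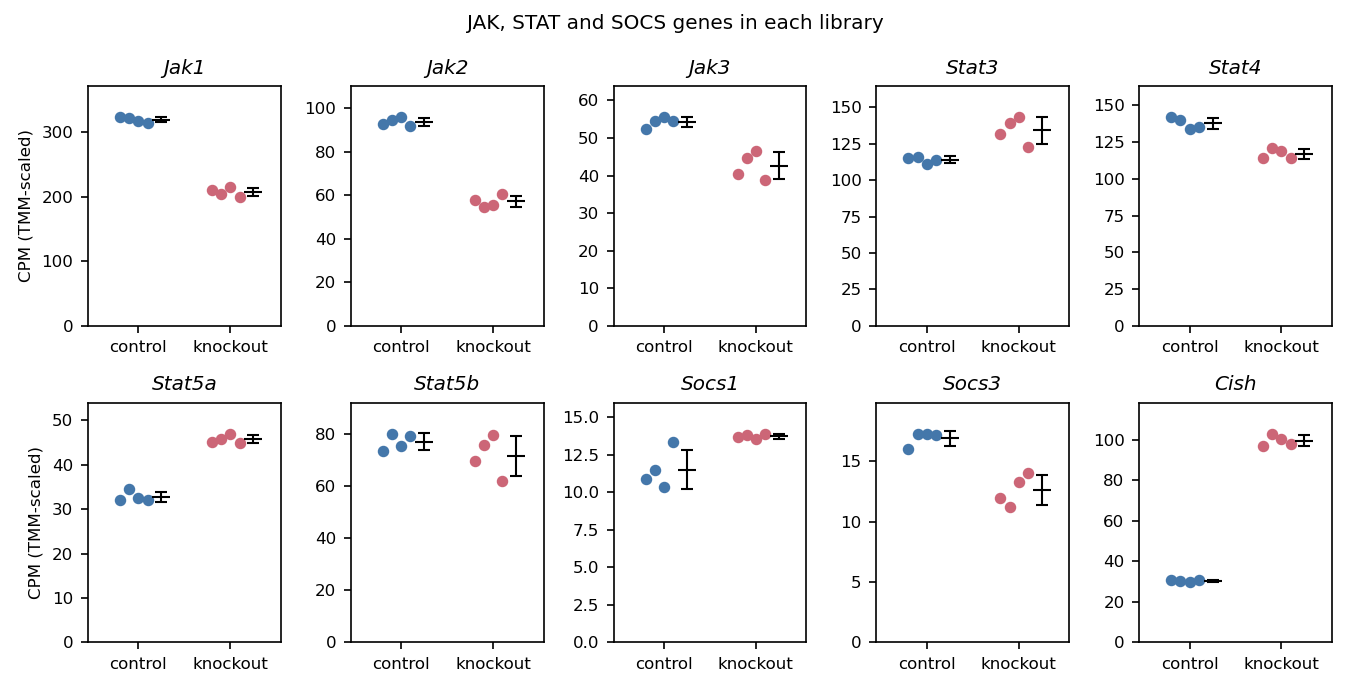
Level of each of the 10 genes in CPM scaled by TMM (linear axes from 0), with 1 point per library in replicate order from left to right and the mean ± SD of 4 libraries beside them. Control and knockout points are apart in every panel but that of Stat5b, where knockouts range from 62.2 to 79.7 CPM and controls from 73.5 to 80.2.

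The Janus kinase genes of the set were all lower in the knockout libraries. Jak1, on chromosome 4 (101152367 to 101265282, minus strand, GRCm38), encodes the kinase shared by receptors of the interleukin-2, interleukin-6 and interferon families. It stood at 322.5, 321.9, 317 and 314 CPM in control replicates 1 to 4 and at 210.0, 204, 215 and 199 CPM in knockout replicates 1 to 4. The groups were widely apart, and the knockout mean was 64.9% of the control mean. Jak1 fell by 0.62 on the log2 scale (SE 0.043, edgeR quasi-likelihood, adjusted p = 1.1e-11).

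Jak2, on chromosome 19 (29251828 to 29313080, plus strand), encodes the kinase that works with the interleukin-12 and interferon gamma receptors. Its controls held 92.7, 94.6, 95.9 and 91.8 CPM and its knockouts 58.1, 54.8, 55.5 and 60.7 CPM. The groups were far apart relative to their spread, and this was the largest fall among the 10 genes, 0.71 on the log2 scale (SE 0.045, edgeR quasi-likelihood, adjusted p = 2.2e-12). Jak3, on chromosome 8 (71676296 to 71690575, plus strand), encodes the kinase that sits on the common gamma chain of the interleukin-2 family of receptors. It measured 52.5, 54.5, 55.5 and 54.4 CPM in controls and 40.5, 44.6, 46.6 and 38.9 CPM in knockouts. The knockout libraries were more spread than the controls but all lay below them, and Jak3 fell by 0.35 on the log2 scale (SE 0.053, edgeR quasi-likelihood, adjusted p = 4.9e-06). A 404-base stretch of Jak3 exons is shared with Insl3 on the same strand. Insl3 stood at 2.22 ± 0.18 and 2.06 ± 0.15 CPM (SD, n = 4), and at its density the shared bases would bring 2.84% of the Jak3 counts.

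Tyk2, the remaining kinase of the family and not one of the 10, differed from the others in that it was not called. It averaged 36.6 ± 1.7 CPM in controls and 37.2 ± 1.1 CPM in knockouts (SD, n = 4; log2 fold change 0.023, SE 0.049, edgeR quasi-likelihood, adjusted p = 0.70), a difference whose sign turned under another scaling and without control replicate 1. Part of its exons, 554 bases, is shared with the opposite-strand gene 1700084C06Rik at 19.7 ± 2.1 and 22.9 ± 4.3 CPM, and at that gene's density those bases would bring 42.7% of the Tyk2 counts, a limit on its level and its share. Shares within a family do not depend on how libraries are scaled, so the kinases were also compared as shares of the family's counts per kilobase of gene. Tyk2 made up 6.41% to 7.01% of the 4 kinases in controls and 9.89% to 10.4% in knockouts, while Jak1 went from 55.7% to 57.3% down to 52.9% to 54.4%. Jak2 went from 23.7% to 24.2% down to 20.1% to 23.1%, and Jak3, the kinase that fell least of those called, took a larger share, 12.6% to 13.2% in controls and 13.9% to 15.8% in knockouts. None of these ranges overlapped, and each difference reached the smallest p that 4 against 4 libraries allow (exact permutation test, two-sided, p = 0.0286, or 0.0319 adjusted over the 19 shares computed). As the 4 shares add up to the whole, a change in 1 kinase moves the shares of the rest. The 4 kinases together came to 78.2 ± 0.87 CPM per kilobase in controls and 53.4 ± 1.2 in knockouts (SD, n = 4), 68.3% of the control level.

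The STAT genes moved in both directions. Stat3, Stat5a and Stat5b lie side by side on chromosome 11. Stat3 and Stat5a rose and Stat5b was not called. Stat5a (100859351 to 100885169, plus strand) and Stat5b (100780731 to 100850724, minus strand) encode the closely related pair of STAT5 proteins that carry interleukin-2, interleukin-7 and interleukin-15 signals. Stat5a held 32.1, 34.5, 32.4 and 32.1 CPM in controls and 45.2, 45.8, 47.0 and 45.0 CPM in knockouts. All knockouts stood well above all controls, and Stat5a rose by 0.48 on the log2 scale (SE 0.046, edgeR quasi-likelihood, adjusted p = 3.4e-09). Stat5b held 73.5, 80.2, 75.4 and 79.4 CPM in controls and 69.6, 75.7, 79.7 and 62.2 CPM in knockouts. Here the groups overlapped, with knockout replicate 3 level with the highest controls and knockout replicate 4 lowest of all, and the log2 fold change of -0.10 (SE 0.061) was not called (edgeR quasi-likelihood, adjusted p = 0.15).

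The ratio between the STAT5 genes therefore shifted. Stat5a made up 25.3%, 25.02%, 25.03% and 23.9% of the pair's counts per kilobase in controls and 33.5%, 32%, 31.4% and 36% in knockouts. The groups did not overlap (exact permutation test, two-sided, p = 0.0286, the smallest possible). The summed level of the pair stayed close, at 18.5 ± 0.68 CPM per kilobase in controls and 19.4 ± 1.5 in knockouts (SD, n = 4), with overlapping ranges. As the coding sequences are alike, reads could be divided between the genes in a way that the count table does not show.

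Stat3 (100885098 to 100939540, minus strand) encodes the main transcription factor of interleukin-6, interleukin-10 and interleukin-21 signals. It stood at 115, 116, 111 and 114 CPM in controls and at 132, 139, 143 and 123 CPM in knockouts. Every knockout exceeded every control, although knockout replicate 4 did so by a small margin, and Stat3 rose by 0.23 on the log2 scale (SE 0.048, edgeR quasi-likelihood, adjusted p = 1.6e-04). The last 72 bases of Stat3 and Stat5a, 100885098 to 100885169, are annotated on both strands. At the mean density of Stat3 these bases would bring 50.1 counts per library, or 2.41% of the counts of Stat5a. The knockout mean of Stat5a was 139.5% of its control mean. Coverage of the shared bases themselves was not measured, and their part in that rise was not tested.

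Stat4, on chromosome 1 (51987148 to 52107189, plus strand), encodes the transcription factor of interleukin-12 signals. Controls measured 142, 140, 134 and 136 CPM and knockouts 114, 121, 119 and 114 CPM. The knockouts lay wholly below the controls by a modest distance, and Stat4 fell by 0.24 on the log2 scale (SE 0.042, edgeR quasi-likelihood, adjusted p = 3.9e-05). Its exons share 1033 bases with another gene model on the same strand, and at that model's density the shared bases would bring 93% of the Stat4 counts. No source used here says how reads in shared exons were assigned, so the level, share and fall of Stat4 all carry that uncertainty.

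Stat2 and Stat6 are relatives outside the 10. Stat2, a transcription factor of type I interferon signals, averaged 70.3 ± 1.3 CPM in controls and 34.2 ± 2.8 CPM in knockouts (SD, n = 4), a log2 fold change of -1.04 (SE 0.053, edgeR quasi-likelihood, adjusted p = 4.6e-14). Stat6, the transcription factor of interleukin-4 signals, stood at 127 ± 5.6 and 135 ± 5.9 CPM and was not called (adjusted p = 0.11). Without knockout replicate 4 it was called higher, at a log2 fold change of 0.11 (edgeR quasi-likelihood, adjusted p = 0.024). Counted per kilobase, Stat2 made up 14.2% to 14.7% of the summed counts of Stat2, Stat3, Stat4, Stat5a, Stat5b and Stat6 in controls and 7.32% to 7.91% in knockouts. Stat3 went from 10.7% to 11% of that sum up to 13.5% to 14.2%, and Stat5a from 3.99% to 4.37% up to 6.06% to 6.6%. Stat4 took the largest share in controls, 31.5% to 32.7%, and a smaller one in knockouts, 28.9% to 30.8%. Stat6 rose in share from 24.6% to 26.7% up to 29.2% to 31.1%, while the share of Stat5b overlapped at 11.8% to 13.1% and 11.7% to 13.6%. These 6 genes summed to 111 ± 1.4 CPM per kilobase in controls and 102 ± 4.9 in knockouts (SD, n = 4), 92% of the control level.

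**Figure D2:**
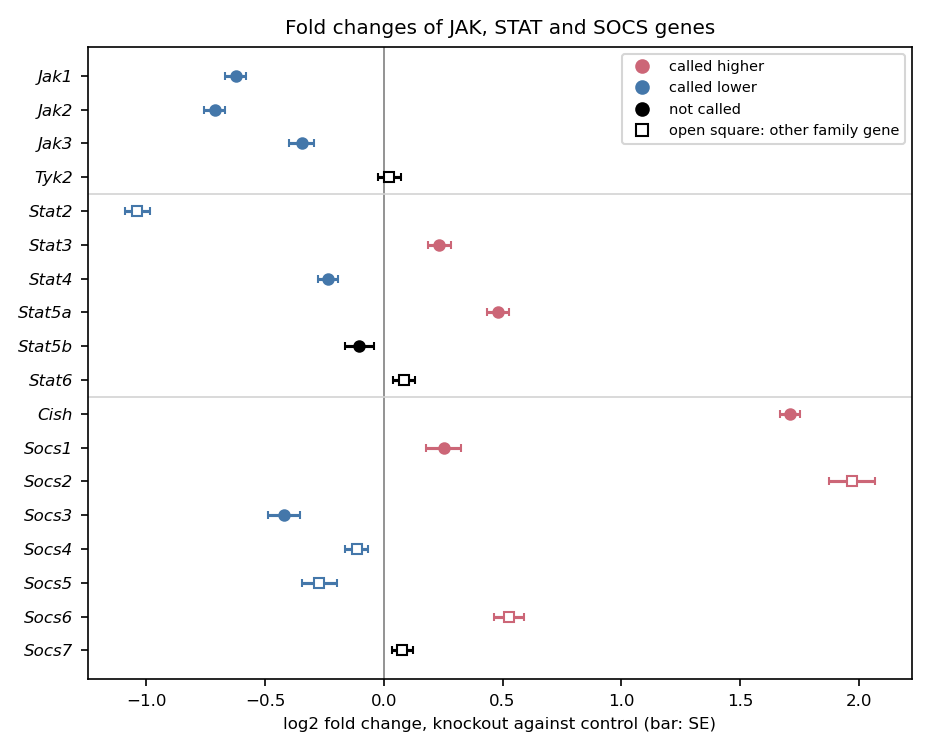
Log2 fold change of knockout against control (x axis, bars are SE) for 4 kinase, 6 STAT and 8 SOCS family genes, with filled circles for the 10 genes of the set and open squares for 8 relatives. Values run from -1.04 for Stat2 to 1.97 for Socs2, and Tyk2, Stat5b, Stat6 and Socs7 were not called.

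Among the 3 negative feedback genes of the set, Cish changed most. Cish, on chromosome 9 (107296026 to 107302784, plus strand), encodes the cytokine-inducible SH2 protein CIS, a STAT5 target that restrains interleukin-2 and T cell receptor signalling. Controls held 30.7, 30.5, 29.7 and 30.7 CPM and knockouts 96.8, 103, 100.4 and 97.8 CPM. The knockout libraries were tightly grouped at 3.27 times the control mean, and Cish rose by 1.71 on the log2 scale (SE 0.044, edgeR quasi-likelihood, adjusted p = 2.0e-19). The exons of Gm17041, a predicted gene on the opposite strand, lie entirely within those of Cish, and those of Gm17040 overlap it by 261 bases. Gm17041 itself went from 6.13 ± 0.44 to 34.7 ± 1.8 CPM and Gm17040 from 7.02 ± 0.74 to 25.7 ± 3.0 CPM (SD, n = 4). With the counts of Gm17041 subtracted from Cish, a choice made after seeing the data, Cish stood at 24.3 ± 0.44 and 64.7 ± 3.7 CPM (SD, n = 4), a log2 fold change of 1.42 (edgeR quasi-likelihood, adjusted p = 4.6e-17). The subtraction assumes that every read of Gm17041 was also counted for Cish, which no source used here states.

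STAT proteins bind DNA at the palindrome TTCNNNGAA, and of the 10 genes only Cish and Socs3 hold it in a RefSeq promoter window, 250 bases before to 50 after a start site on GRCm38.p6. The motif reads the same on both strands. It was found in 2 of the 10 genes (20%) beside 9.55% of all genes with a window, and in 2 of their 13 windows (15.4%) beside 8.3% of all 32851 windows. A window with 2 or more copies made up 0.457% of all. The Cish and Socs3 stretches are shown because these genes moved in opposite directions, with the motif in capitals and each stretch read 5′ to 3′ on the strand of its gene.
Cish, chr9:107296559-107296688, plus strand: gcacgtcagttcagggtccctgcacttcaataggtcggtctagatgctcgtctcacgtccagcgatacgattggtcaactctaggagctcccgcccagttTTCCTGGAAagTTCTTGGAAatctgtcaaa
Socs3, chr11:117969452-117969616, minus strand: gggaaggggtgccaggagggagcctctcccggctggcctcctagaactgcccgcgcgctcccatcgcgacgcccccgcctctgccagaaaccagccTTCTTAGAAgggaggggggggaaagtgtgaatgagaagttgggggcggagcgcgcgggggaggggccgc
In Cish the pair of matches, TTCCTGGAA and TTCTTGGAA, lies 2 bases apart, beginning at the RefSeq start site and at position 12 of the transcript. In Socs3 the single match, TTCTTAGAA, begins 154 bases before the start site. The windows of the other 8 genes hold no such match, which says only that these letters are not in those windows. Among relatives, Tyk2, Stat2, Stat6 and Socs4 had a window and none held the motif.

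Socs1, on chromosome 16 (10783808 to 10785536, minus strand), encodes a direct inhibitor of JAK kinase activity that limits interferon gamma and interleukin-2 signals. It stood at 10.9, 11.5, 10.3 and 13.3 CPM in controls and at 13.7, 13.8, 13.5 and 13.9 CPM in knockouts. The knockouts were nearly equal to one another, and control replicate 4 came within a fraction of a CPM of them. Socs1 rose by 0.25 on the log2 scale (SE 0.073, edgeR quasi-likelihood, adjusted p = 0.0045). Socs3, on chromosome 11 (117966079 to 117970047, minus strand), encodes the inhibitor that acts on gp130, the shared receptor chain of the interleukin-6 family. It stood at 15.98, 17.3, 17.2 and 17.1 CPM in controls and at 11.9, 11.2, 13.3 and 14.0 CPM in knockouts. The groups did not overlap, and Socs3 fell by 0.42 on the log2 scale (SE 0.069, edgeR quasi-likelihood, adjusted p = 1.3e-05).

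Among the other SOCS genes Socs2, a further STAT5 target, rose the most of the 18 genes, from 2.57, 2.6, 3.17 and 3.18 CPM in controls to 10.9, 10.5, 11.2 and 12.4 CPM in knockouts (log2 fold change 1.97, SE 0.095, edgeR quasi-likelihood, adjusted p = 1.9e-14). Socs6 rose by 0.53 (SE 0.062), Socs5 fell by 0.27 (SE 0.074) and Socs4 by 0.11 (SE 0.049, adjusted p = 0.045). The Socs4 call ended with DESeq2 (adjusted p = 0.051), with the replicate block (0.052) and when any 1 of 4 libraries was left out: control 1 (0.15), control 3 (0.058), knockout 1 (0.075) and knockout 3 (0.16). Socs7 stood at 42.1 ± 1.1 and 44.5 ± 1.6 CPM (SD, n = 4) and was not called (adjusted p = 0.14). Of the 8 relatives named here 2 rose and 3 fell, or 62.5% called beside 64.3% of all tested genes. The 3 that fell became 2 in the fits named for Socs4, and the 2 that rose became 3, with Stat6, without knockout replicate 4. The 8 SOCS family genes summed to 35.6 ± 1.3 CPM per kilobase in controls and 47.7 ± 0.52 in knockouts (SD, n = 4). Within that sum Cish went from 4.74 ± 0.077 to 15.5 ± 0.43 CPM per kilobase (SD, n = 4). Cish made up 12.8% to 13.6% of the sum in controls and 31.8% to 33.4% in knockouts, and Socs3 15.7% to 17.3% and 8.08% to 10.1%. If Gm17041 reads were also counted for Cish, the sum and every share in it carry them. The sum and shares were not computed without those reads. The share of Socs1 was lower in knockouts, at 23.2% to 23.9% against 24.6% to 29.2%, although its own level rose. Across the 19 shares of the 3 sets of genes and the STAT5 pair, 17 were at the smallest p that the design allows (exact permutation test, two-sided, p = 0.0286 each) and those of Socs6 (p = 0.0857) and Stat5b (p = 0.914) were not. Shares of a set add up to the whole and move each other, so these 17 are not separate results. The shares of Tyk2, Stat6 and Socs7 are among them, although the levels of these genes were not called.

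**Figure D3:**
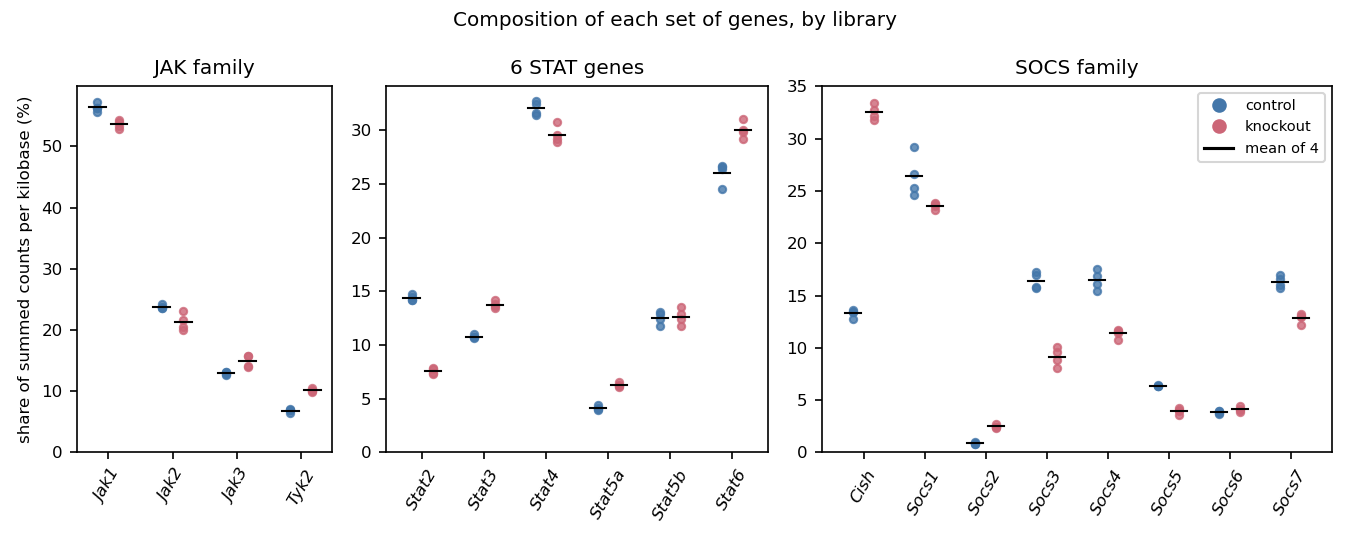
Share of each gene in the summed counts per kilobase of the genes in its panel (percent, linear axes from 0), with 1 point per library and a line at the mean of 4 libraries. Stat2 drops from 14.4% to 7.61% of the counts of 6 STAT genes, and Cish grows from 13.3% to 32.5% of SOCS counts. Counts of Cish may include reads of the overlapping Gm17041.

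Levels can be set against each other only per length. In CPM per kilobase, controls ranked Jak1 first at 44.1 ± 0.55, then Stat4 at 35.6 ± 0.96, Jak2 at 18.6 ± 0.37, Stat5b at 13.9 ± 0.58, Stat3 at 11.98 ± 0.23, Jak3 at 10.1 ± 0.24, Socs1 at 9.43 ± 1.1, Socs3 at 5.85 ± 0.21, Cish at 4.74 ± 0.077 and Stat5a at 4.6 ± 0.16 (SD, n = 4). Ranges of neighbours in this order overlapped for Jak3 with Socs1 and for Cish with Stat5a. In knockouts Stat4 and Jak1 led at 30.2 ± 0.90 and 28.6 ± 0.93, with overlapping ranges. Cish came next at 15.5 ± 0.43, up from place 9 to place 3. If all Gm17041 reads were also counted for Cish, subtracting them would put it at 3.78 and 10.1 CPM per kilobase, places 10 and 7. Stat3 at 14.1 ± 0.95, Stat5b at 13 ± 1.4, Jak2 at 11.4 ± 0.54 and Socs1 at 11.2 ± 0.14 followed with ranges that overlapped from each to the next. Jak3 at 7.97 ± 0.67, Stat5a at 6.41 ± 0.12 and Socs3 at 4.36 ± 0.44 stood apart from their neighbours. Gene length here is the union of all annotated exons, 6419 bases for Cish, which includes intron-spanning exons of some transcripts and so understates genes with a short main transcript.

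The listed receptors that use these kinases were mostly lower. This list and those below were drawn up with earlier results of these data known, so their counts and medians only describe the listed genes. Of 23 listed receptor chains 21 were tested, 12 fell and 6 rose (85.7% called beside 64.3% of all tested genes), with a median log2 fold change of -0.45. Osmr and Lifr did not pass the filter. The interferon receptor chains Ifnar1 and Ifnar2 fell from 79.9 ± 1.8 to 40.2 ± 1.7 CPM and from 63.8 ± 1.3 to 33.7 ± 0.25 CPM, and Il6st, which encodes gp130, from 72.8 ± 3.3 to 25.5 ± 1.5 CPM (SD, n = 4). Il2ra, the high-affinity interleukin-2 receptor chain, rose from 233 ± 4.2 to 1015 ± 16 CPM. As genes chosen after their values were seen, the other chains of that receptor went elsewhere: Il2rg, the common gamma chain that holds JAK3, fell from 164.9 ± 6.1 to 97.8 ± 3.3 CPM, and Il2rb stood at 185 ± 8.4 and 189 ± 4.4 CPM (adjusted p = 0.61). The interleukin-12 receptor genes Il12rb1 and Il12rb2, also chosen so, rose by 0.71 (SE 0.052) and 0.54 (SE 0.042; edgeR quasi-likelihood, adjusted p = 3.4e-11 and 1.1e-10), opposite to Jak2 and Stat4.

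Genes for cytokines that signal through JAKs were few and low. Only 11 of 19 passed the filter, which favours genes that are high in one group, and 7 rose and 1, Il22, fell (72.7% called beside 64.3% of all tested genes). The 4 with the smallest adjusted p were Ifng, Il23a, Lif and Csf2. Lif, an interleukin-6 family cytokine, went from 7.08 ± 0.49 to 23.5 ± 2.6 CPM and Csf2, which encodes GM-CSF, from 0.965 ± 0.30 to 6.25 ± 1.0 CPM (SD, n = 4). Il2 itself did not pass the filter, nor did Il3, Il9, Il15, Il21, Il6, Il7 and Il27.

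Other regulators of the pathway split evenly, with 7 higher and 7 lower among 18 tested (77.8% called beside 64.3% of all tested genes) and a median log2 fold change of 0.0019. Ptpn1, a phosphatase that acts on JAK2 and TYK2, rose from 240 ± 7.8 to 355 ± 18 CPM, while Ptprc, the phosphatase CD45, fell from 1666 ± 56 to 1196 ± 41 CPM (SD, n = 4). Pias3, an inhibitor of STAT3, fell by 0.88 (SE 0.10), and Dusp3, a phosphatase, rose by 2.25 (SE 0.22) from 0.421 ± 0.099 CPM. Ptpn2, a phosphatase of JAK1, JAK3 and STAT proteins that was chosen after its values were seen, rose by 0.37 (SE 0.045, edgeR quasi-likelihood, adjusted p = 1.7e-07).

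Genes listed as known STAT5 targets were mostly higher, in a list drawn up with earlier results of these data known. Of 25 listed and tested, 18 rose and 5 fell (92% called beside 64.3% of all tested genes, of which 32.8% were called higher; median log2 fold change 0.70), 3 of them being Cish, Socs1 and Socs3. The 4 with the smallest adjusted p were Il2ra, Gzmb, Tnfrsf4 and Bcl2l1. Bcl2l1, which encodes the survival protein BCL-XL, went from 26.7 ± 1.6 to 102 ± 3.0 CPM (SD, n = 4). The members that fell were Socs3, Mcl1, Pim2, Bcl6 and Il7r. As background, Il7r and Bcl6 are known to be repressed, not induced, by interleukin-2 signals. What lowered any of these 5 genes was not tested. Pim1 stood at 84.4 ± 1.5 and 89.1 ± 3.3 CPM and was not called (adjusted p = 0.11).

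For STAT3 targets 11 of 16 tested rose and 2, Il6st and Socs3, fell (81.3% called beside the same 64.3%, median log2 fold change 0.49). Junb, an AP-1 subunit, went from 95.5 ± 4.5 to 182 ± 7.6 CPM and the transcription factor gene Maf from 4.59 ± 0.59 to 11.2 ± 1.0 CPM (SD, n = 4). For STAT4 targets 10 of 13 tested rose and 3 fell (100% called beside 64.3%, median log2 fold change 0.71), Ets1 the most of the falling ones, from 523 ± 3.3 to 214 ± 5.1 CPM (SD, n = 4). Ifng, Gzmb and Il2ra stand in this list too, so the lists share genes, and these genes are also induced by T cell receptor signals and other transcription factors. The levels measured here are of RNA, and phosphorylation of STAT proteins was not analysed here.

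**Figure D4:**
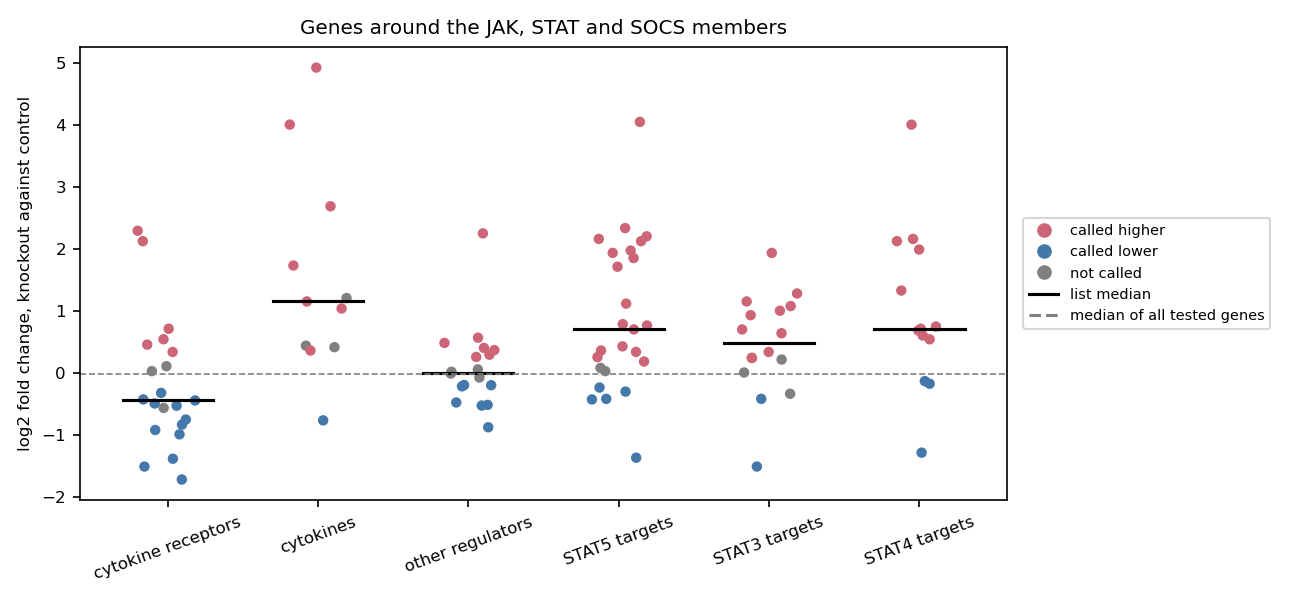
Log2 fold change of each tested gene (1 point each) in 6 lists around the pathway, with the list median as a black line and the median of all tested genes, -0.012, as a dashed line; sideways scatter has no meaning. The median lies at -0.45 for cytokine receptors and at 0.70, 0.49 and 0.71 for STAT5, STAT3 and STAT4 targets.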

How the data were processed

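The authors deposited 1 table of raw counts, by gene and library, beside each gene's exon coordinates and length. Per the submitters' processing notes, Trimmomatic 0.36 trimmed the reads, featureCounts (Subread 1.5.1) counted them, and the build was GRCm38. No source used here names the aligner, annotation release or strand setting. All columns carry sample titles, and all 49492 rows name a gene. In genes with 1 to 10 counts, 87% to 88.7% of counts were even, so each mate of a read pair appears to have been counted.

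Genes were kept by filterByExpr (17940 left), scaled by TMM and tested by edgeR 4.0.16 (R 4.3.3; limma 3.58.1 gave an alternative). The robust quasi-likelihood F test was two-sided, p was adjusted by Benjamini-Hochberg over all 17940 genes, and 0.05 was the threshold. SE is the size of the log2 fold change over the square root of F. CPM uses TMM-scaled sizes. Shares were compared by exact permutation over the 70 assignments of 8 libraries into 4 and 4. DESeq2 1.42.0 was an alternative. The fit was also run on simulated counts in which few genes changed, in equal numbers each way. In these data 64.3% of tested genes were called, so that run cannot show how the fit behaves with changes this widespread.

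Differences between libraries came to 1.74 to 4.97 times the sampling noise in the 12 pairs of equal genotype, against 30.6 to 43.6 in the 16 mixed pairs, so no library was taken as a repeat. Promoters are from RefSeq on GRCm38.p6; all 10 members matched, and Socs2, Socs5, Socs6 and Socs7 had no entry. The members and lists were chosen with earlier results of these data known. All 10 members and 8 relatives are named; 1 further gene of the families is not reported here, and shares and sums leave it out. Also named are up to 4 called genes of smallest adjusted p of each other pathway list and the leading markers; genes outside this rule are said to be so.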

Additional observations from a re-analysis of the deposited data

Results flagged for a closer look

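In 4 of 76 sets of 4 libraries checked, 1 library stood apart from the other 3 by more than Dixon's test allows at the 95% level, where chance flags about 1 in 20. Stat5a in controls was flagged for replicate 2 at 34.5 CPM against 32.1 to 32.4 in the others. Socs3 in controls was flagged for replicate 1 at 15.98 CPM against 17.1 to 17.3. Socs5 in controls was flagged for replicate 4 at 10.5 CPM against 9.69 to 9.81. The share of Stat6 among 6 STAT genes in controls was flagged for replicate 2 at 24.6% against 26.5% to 26.7%. In each case the library stayed on its own side of the knockout range.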

How the results depend on the processing

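Apart from Stat5b, 9 members kept their direction and call under each of 16 alternatives (other scalings, DESeq2, limma-voom, no filter, no X and Y genes, halved counts, the replicate block, each library left out). Stat5b was called at -0.13 with upper quartile scaling, -0.12 with no filter and -0.16 without knockout replicate 3; with a library left out it ranged from -0.16 to -0.044, the latter without knockout replicate 4. Tested against a fold of 1.5, the calls of Jak1 (-0.62), Jak3 (-0.35), Stat3 (0.23), Stat4 (-0.24), Stat5a (0.48), Socs1 (0.25) and Socs3 (-0.42) ended, leaving 1 member higher and 1 lower and 1516 and 1629 genes in all. By that test the lists held, higher and lower, 1 and 1 relatives, 3 and 6 receptors, 1 and 1 other regulators, 6 and 1 STAT3 targets, and among cytokines, STAT5 and STAT4 targets 0, 1 and 1 lower. Not called in any case, Tyk2 turned to -0.0082 with upper quartile scaling and ranged from -0.0098 (without control replicate 1) to 0.039 with a library left out, and the share of Socs6 to -0.14 points and that of Stat5b to -0.47 on counts not divided by length; the latter ranged from -0.19 (without knockout replicate 3; -0.15 without control replicate 1) to 0.42 with a library left out. Of the 19 shares 0 were called with a library left out or with the replicate block, where the smallest possible p values are 0.0571 and 0.125. Same-numbered libraries deviated together at r = 0.113, 0.249, -0.0889 and 0.197 (5 of 8 best with their own number). These values do not settle whether equal numbers share an animal or day. The labels do not say so, and for that reason the numbers were not taken as pairs. The block moved no count of calls by over 1.5 times among genes.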
